A study of Mus musculus with 19 samples.

Results

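The dystrophin glycoprotein complex was followed through its genes Dmd, Utrn, Dag1, Sgca, Sgcb, Sgcd, Dtna and Sspn. Its members were every microarray probe, control spots left out, whose gene name is one of these 8. They came to 24 probes out of 41174 on the array, and to 8 genes out of 27793 gene names. Each probe was kept apart, since probes of a gene can lie in different transcripts, and the probe with the highest mean over all arrays leads for its gene.

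Dystrophin, the product of Dmd, is the large protein under the muscle membrane that ties the actin skeleton of the fibre to the complex. Utrophin, from Utrn, is its close relative and is found at the neuromuscular junction and in immature muscle. Dag1 encodes dystroglycan, which spans the membrane and binds laminin and other matrix proteins outside the cell through sugar chains. The sarcoglycans (Sgca, Sgcb and Sgcd) and sarcospan (Sspn) form a side complex in the membrane, and α-dystrobrevin (Dtna) binds dystrophin and the syntrophins on the inner side. Loss of dystrophin, of several sarcoglycans or of dystroglycan's sugar chains causes muscular dystrophy.

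The samples were 12 arrays of C2C12 cells, a mouse myoblast line, and 7 arrays of mouse soleus, a slow postural muscle of the lower leg. WT cells (n = 6) carried empty plasmids, and HDAC4&5 cells (n = 6) stably expressed human wild-type HDAC4 and HDAC5, class IIa histone deacetylases, from plasmids. Both went through several rounds of selection with hygromycin B and geneticin, and both were collected in growth medium 48 h after seeding, when about 80% confluent. Whether either line was 1 clone or a pool is not given in the sources used here, and the study's methods state that the cells were analysed as myoblasts because the HDAC4&5 cells did not form myotubes. Soleus came from male mice of 12 weeks, fasted for 5 h: Con (n = 3), labelled db -/+, the heterozygous littermates, and db (n = 4), labelled db +/+, the obese and diabetic db/db mice, homozygous for a mutation of the leptin receptor gene.

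RNA was labelled for 1-colour Agilent arrays. A level below is the log2 processed signal of a probe minus the 75th percentile of its array, so that 0 is the level of a bright probe and a difference of 1 is a doubling. That percentile ran from 153 to 1691 intensity units, and from 46.8 to 57.5% of the probes of an array were well above background. Soleus slide 1 was dimmer (153 to 232) than slide 2 (555 to 686), and each soleus slide held both groups. In the cells, 3 slides also held both groups each. On the array of db replicate 3, 7.3% of spots were marked as outliers by the feature extraction software and left out. Among the targeted genes, Hdac5 was 1.88 to 2.73 in WT and 2.77 to 4.40 in HDAC4&5 cells (log2 difference 1.42 ± 0.27 SE, limma adjusted p = 0.000388) and Hdac4 differed by -0.05 (adjusted p = 0.366). The transgenes are human, and their detection by these mouse probes was not tested. In WT cells, labelled as myoblasts, 5 of 7 myoblast markers were above background on every array, with Pax7 and Myf5 on none. In HDAC4&5 cells all 5 tested were lower, Myod1 was above background on 0 of 6 arrays, and the summed level of the list, in multiples of the array's 75th percentile, was 5.64 to 7.21 against 134 to 295 in WT. All 8 muscle fibre markers summed to 33.1 to 61.9 in WT and 0.878 to 1.03 in HDAC4&5 cells, where Ckm was above background on no array, and to 1020 to 2560 in Con and 825 to 2110 in db soleus.

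The sequences of 5 probes are given, in mm9 coordinates, because the largest and the least certain values below rest on them. Dmd probe 3 and the pair from Utrn lie far from the leading probes of those genes, Sgca probe 1 carries the largest difference in the cells, and Sgcd probe 2 carries a value that 1 array decides. The other leading probes lie at chrX:82449518-82449577 (Dmd probe 4), chr10:12102160-12102219 (Utrn probe 1), chr9:108108491-108108550 (Dag1 probe 1), chr5:74026616-74026675 (Sgcb probe 2) and chr6:145913470-145913529 (Sspn). Exons were not assigned, since no annotation of that build was used here.
Dmd probe 3, chrX:82389391-82389450, plus strand: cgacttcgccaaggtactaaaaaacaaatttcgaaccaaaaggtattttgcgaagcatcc
Utrn probe 3, chr10:12125761-12125820, minus strand: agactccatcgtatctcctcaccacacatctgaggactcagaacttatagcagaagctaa
Utrn probe 5, chr10:12453709-12453768, minus strand: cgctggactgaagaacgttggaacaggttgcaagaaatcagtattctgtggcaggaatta
Sgca probe 1, chr11:94824644-94824703, minus strand: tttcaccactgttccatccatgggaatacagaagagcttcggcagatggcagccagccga
Sgcd probe 2, chr11:46794345-46794404, minus strand: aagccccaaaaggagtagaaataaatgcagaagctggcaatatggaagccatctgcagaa

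Of the 24 probes, 7 were above background on every array of no group: Dmd probes 1 and 2, Utrn probes 4 and 6, Sgcb probe 3, Sgcd probe 1 and Dtna probe 1. The other 17 cover all 8 genes. In the cells 15 probes of 7 genes were tested, without Dmd, and in soleus 17 probes of 8 genes.

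**Figure D1:**
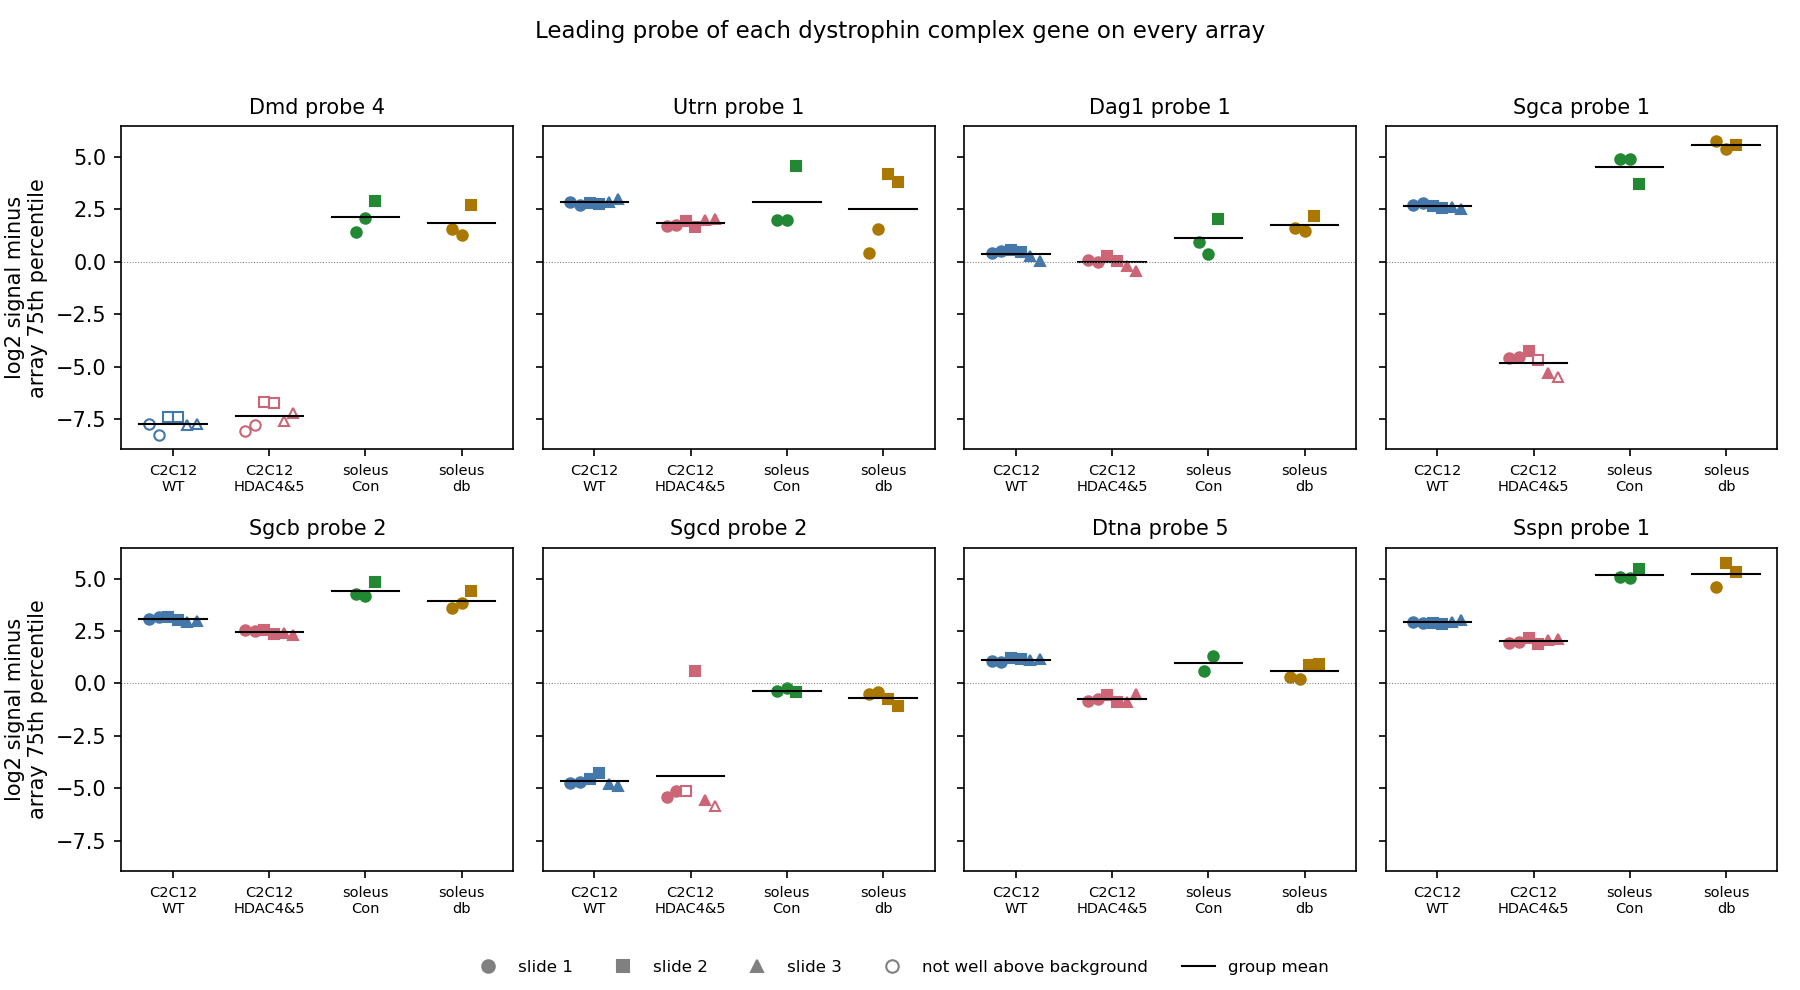
Level of the leading probe of each gene on every array (log2 processed signal minus the array's 75th percentile), with the 4 groups along the horizontal axis, 1 point per array, a marker shape per slide, open points for arrays where the probe was not well above background and a line at the group mean. Sgca lies between 2.51 and 2.81 in WT and between -5.48 and -4.27 in HDAC4&5 cells, and Dmd is above background on the soleus arrays only.

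The first comparison asked how expression of human HDAC4 and HDAC5 changed the complex in C2C12 cells. The dystrophin complex genes were lower in HDAC4&5 than in WT cells: Utrn, Dag1, Sgca, Sgcb, Dtna and Sspn all fell, and Dmd was not above background in either group. By leading probe the fall was 1.33-fold for dystroglycan, 1.54-fold for β-sarcoglycan, 1.85-fold for sarcospan, 1.96-fold for utrophin, 3.65-fold for α-dystrobrevin and 177-fold for α-sarcoglycan. Of 15 probes tested, 14 were lower and 0 higher, while over all 21432 probes 31.9% were lower and 36.5% higher. By leading probe, 6 of 7 genes were lower, against 32.7% lower and 36.4% higher over 14104 genes. The median difference was -0.97 over the members, from -7.47 to 0.25, and 0.05 over all probes. In the deposited normalized values the share of lower among all called probes was 60.8%, against 46.6% here, and the member count stayed at 14 lower and 0 higher. It was 11 with another background correction (normexp), and 13 with the arrays of a group on the same slide averaged, which leaves 3 values a group. All myoblast markers tested and 6 of 7 muscle fibre markers fell in the same cells, the exception being the slow myosin Myh7, which was higher by 1.44. The summed level of 5 fibroblast markers was 38.2 to 45.9 in WT and 81 to 97.2 in HDAC4&5 cells. Of these markers 4 were tested, with 3 higher and 1 lower (-1.32), and Lum was above background on no array of either group. The part of these markers in the members' differences was not tested.

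Dystrophin had no measurable level in the cells. Its leading probe was above background on 0 of 6 WT and 0 of 6 HDAC4&5 arrays, with signals at -7.72 ± 0.31 (SD, n = 6) and -7.36 ± 0.56 that have no order. Dmd probe 3 was above background on 1 WT array, replicate 5, at -3.75, with the other WT arrays between -8.44 and -7.11. Utrophin was measured in both groups. Its leading probe lay between 2.73 and 2.99 in WT, with a median of 2.82, and between 1.68 and 2.05 in HDAC4&5, with a median of 1.85. The groups did not overlap, and the difference was -0.97 ± 0.08 (SE, adjusted p = 8.97e-08), or 1.96-fold lower. Utrn probes 2, 3 and 5 were lower as well, by -0.61, -0.63 and -1.02. Utrn probe 5 lies far from the others, toward the 5′ end of the gene, and its HDAC4&5 arrays, from -1.16 to 0.15, overlapped the WT arrays, from -0.32 to 1.18 (adjusted p = 0.00548, and 0.0513 without slide 1). With normexp, Utrn probe 2 was at -0.24 (adjusted p = 0.209) and Utrn probe 3 at 0.07 (adjusted p = 0.822), so neither was lower under that correction, while probe 1 was at -1.04.

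Dystroglycan fell least. Dag1 probe 1 lay between 0.03 and 0.58 in WT (median 0.45) and between -0.42 and 0.28 in HDAC4&5 (median 0.02), and these ranges overlapped. The difference was -0.41 ± 0.12 (adjusted p = 0.00832), a fold of 1.33, and it kept its size with an adjusted p of 0.0736 without the arrays of slide 1 and of 0.0628 with the arrays of a group on the same slide averaged. Dag1 probe 2, which lies close by, gave -0.44 (adjusted p = 0.00116). With normexp, probe 2 was at 0.08 (adjusted p = 0.787) while probe 1 stayed at -0.40 (adjusted p = 0.00982).

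α-Sarcoglycan, the muscle-restricted subunit, had the largest difference of all members. Sgca was between 2.51 and 2.81 in WT, with a median of 2.64, and between -5.48 and -4.27 in HDAC4&5, with a median of -4.66. It was above background on all 6 WT arrays and on 4 of 6 HDAC4&5 arrays, so that the low group sat at the edge of detection. The difference was -7.47 ± 0.18 (adjusted p = 7.38e-13), or 177-fold lower, and within slides it was -7.33, -7.12 and -7.96. With normexp it was -5.19. β-Sarcoglycan, a core subunit with wider expression, changed less. Sgcb probe 2 lay between 2.95 and 3.19 in WT (median 3.05) and between 2.31 and 2.55 in HDAC4&5 (median 2.44), a difference of -0.63 ± 0.06 (adjusted p = 1.05e-06). Sgcb probe 1 fell by 1.46 on the log2 scale, 2.74-fold, and neither probe's groups overlapped.

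δ-Sarcoglycan, the other core subunit, did not pass the test, and 1 array decided this. Sgcd probe 2 was between -4.90 and -4.27 on the WT arrays, with a median of -4.71. The HDAC4&5 arrays read -5.40, -5.14, -5.12, 0.60, -5.56 and -5.85, so that replicate 4 stood over 5 units above the rest. With it the difference was 0.25 ± 0.91 (adjusted p = 0.824, 95% interval -1.74 to 2.23), and without it -0.76 (adjusted p = 0.000621). Within slides the difference was -0.56 on slide 1, 2.16 on slide 2, which holds that array, and -0.85 on slide 3. That array had 15 of 21432 probes more than 3 units above every other HDAC4&5 array, against 0 to 6 on the other cell arrays. What set Sgcd apart on it was not tested.

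Sarcospan, which is bound to the sarcoglycans, had tight groups. Sspn was between 2.85 and 3.02 in WT (median 2.89) and between 1.88 and 2.18 in HDAC4&5 (median 2.01). The difference was -0.89 ± 0.06 (adjusted p = 2.02e-08), or 1.85-fold lower, with no overlap.

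α-Dystrobrevin was lower with 4 of 4 probes tested. Dtna probe 5, the leading probe, lay between 1.03 and 1.22 in WT (median 1.14) and between -0.89 and -0.52 in HDAC4&5 (median -0.79). The difference was -1.87 ± 0.07 (adjusted p = 9.49e-11), or 3.65-fold lower. Probes 2, 3 and 4 gave -2.24, -1.85 and -2.04, and the groups of none of the 4 probes overlapped. With normexp the falls of probes 2 to 5 were -0.93, -0.95, -1.43 and -1.75, all past the threshold and less alike.

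Over the members, 11 of 15 probes had groups that did not overlap and were lower in HDAC4&5 cells, against 25% of all probes. The probes with overlap were Utrn probe 5, both Dag1 probes and Sgcd probe 2. Among the leading probes other than that of Sgcd, the differences within the 3 slides lay close together, as for Utrn (-1.05, -0.96 and -0.92), Sgcb (-0.62, -0.64 and -0.62) and Dtna (-1.85, -1.93 and -1.83).

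**Figure D2:**
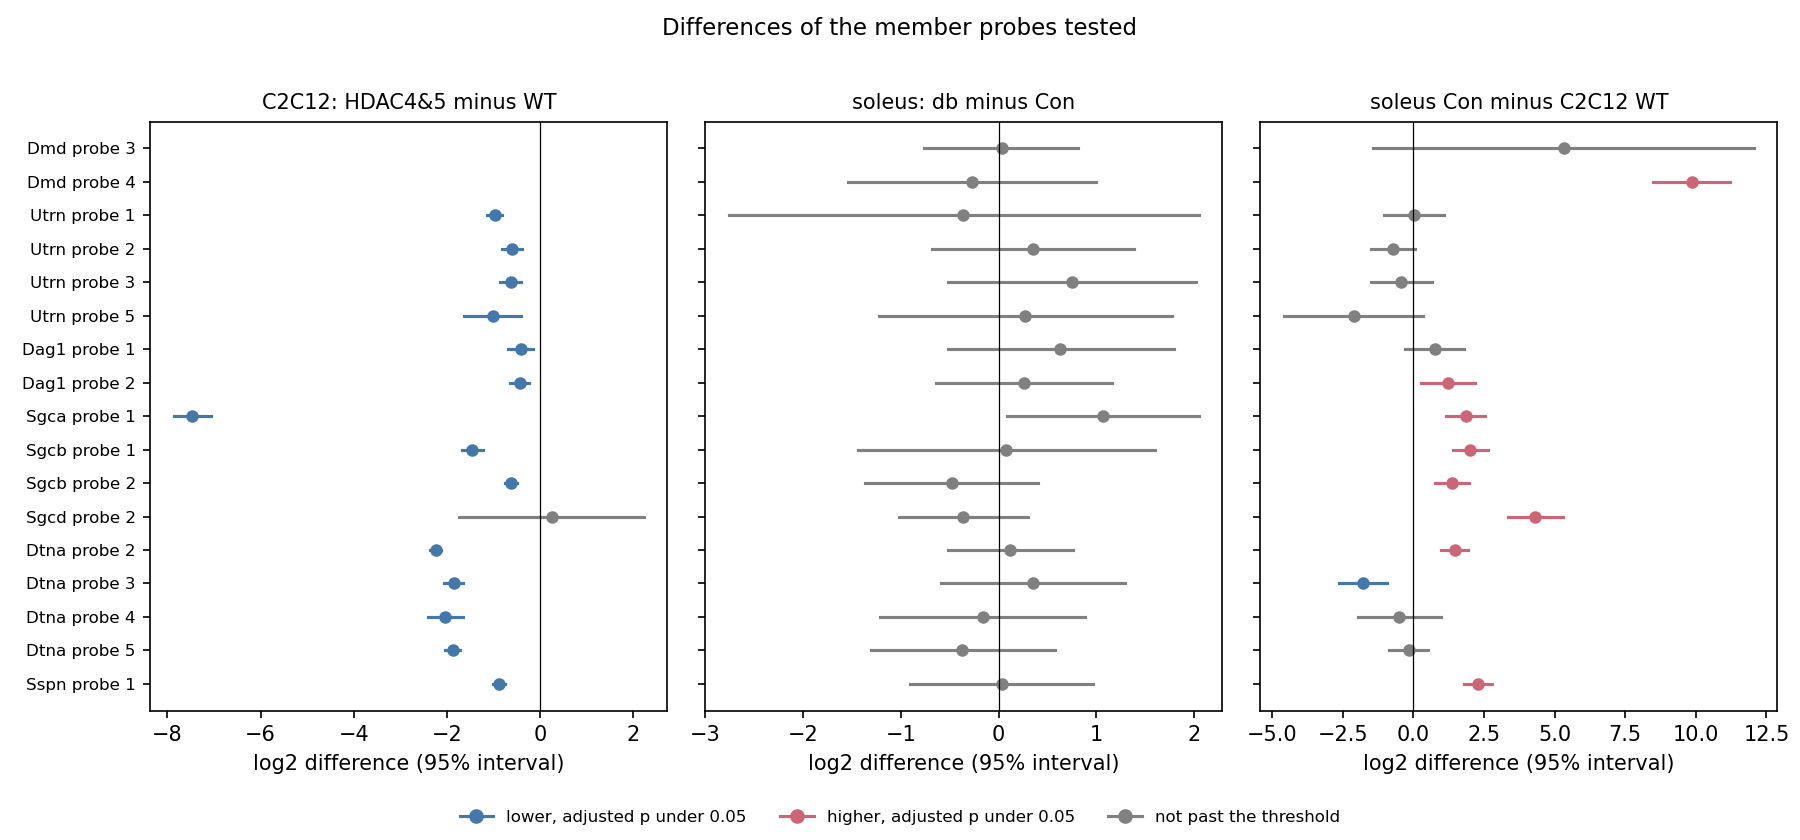
Log2 difference of each member probe tested with its 95% interval, in C2C12 cells (HDAC4&5 minus WT), in soleus (db minus Con) and between tissue and cells (Con soleus minus WT cells). Probes lie along the vertical axis, and colours mark probes past an adjusted p of 0.05. In the cells 14 of 15 probes lie to the left of 0 past the threshold, and in soleus 0 of 17 pass it.

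The second comparison asked whether the complex differed in the soleus of db mice. No member passed the test: of 17 probes tested 0 were higher and 0 lower by limma, while over all 18472 probes 0.00541% (1 probe) were lower and 0% higher. Before adjustment limma's p was under 0.05 for 1 of 17, against 6.44% of all probes. The methods' t-test, also unadjusted, called 0 of 17, while over all probes it called 805 higher and 596 lower. With the slide as a block, which compares db with Con on the same slide, 0 of 17 passed, against 0.173% of all probes in either direction. The members' median difference was 0.08, from -0.48 to 1.07, and that of all probes 0.02. With 3 and 4 mice on 2 slides the intervals are wide: that of Utrn probe 1, from -2.76 to 2.05, holds its difference in the cells, -0.97. The SE of that probe was 1.05, and 0.31 with the slide as a block, so the width of its interval also holds the difference between slides.

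Sgca had the largest difference in muscle. It was 4.89, 4.89 and 3.73 in Con and 5.77, 5.40 and 5.56 in db replicates 1 to 3, with the spot of replicate 4 left out as an outlier. All db arrays were above all Con arrays, and Con replicate 3 was the lowest. The difference was 1.07 ± 0.42 (adjusted p = 0.758, 95% interval 0.09 to 2.05), with the slide as a block 1.07 ± 0.31 (adjusted p = 0.181), and 0.69 and 1.84 within the slides, the latter from Con replicate 3 and db replicate 3 alone. It was 0.68 without Con replicate 3, and 0.69 with the slide as a block without db replicate 3. That interval, which is not adjusted, left out 0, but the adjusted p did not pass.

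Sgcd was the other member without overlap. Its leading probe read -0.35, -0.24 and -0.42 in Con and -0.52, -0.43, -0.74 and -1.09 in db, a difference of -0.36 ± 0.29 (adjusted p = 0.895, 95% interval -1.02 to 0.30). All db arrays lay below all Con arrays, though the nearest pair, at -0.42 and -0.43, hardly differed. Together Sgca and Sgcd made 2 of 17 probes without overlap, against 10.2% of all probes, so this count was near the background.

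The levels of dystrophin and utrophin spread widely between arrays, and by leading probe both were higher on every array of slide 2 than on any of slide 1. Dmd probe 4, printed as 10 spots on each array, read 1.42, 2.10 and 2.88 in Con and 1.58, 1.29 and 2.72 in db, with replicate 3 left out. The groups overlapped, and the difference was -0.27 ± 0.54 (adjusted p = 0.963, 95% interval -1.54 to 1.00). Dmd probe 3 gave a difference of 0.03, with Con at -1.62, -1.96 and -1.82 and db at -1.21, -2.36, -1.61 and -1.92. Utrn probe 1 read 2.00, 1.99 and 4.59 in Con and 0.42, 1.56, 4.20 and 3.83 in db. The high values, Con replicate 3 and db replicates 3 and 4, were those of the brighter slide 2. The difference was -0.36 ± 1.05 (adjusted p = 0.978, 95% interval -2.76 to 2.05), and with the slide as a block -0.83 ± 0.31 (adjusted p = 0.239). Utrn probes 2, 3 and 5 differed by 0.35, 0.75 and 0.27, so that the sign over both slides was not shared by the probes of the gene. Within slide 1 these 3 probes were at 0.86, 1.17 and 0.91. There Con replicate 2 read -3.35, -4.30 and -2.65, the first 2 not above background. Within slide 2 probes 1, 2 and 5 were at -0.57, -0.36 and -0.40, and probe 3 had no Con value.

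The other members overlapped between the groups. Dag1 probe 1 read 0.96, 0.39 and 2.03 in Con and 1.63, 1.46 and 2.18 in db (difference 0.63 ± 0.49, adjusted p = 0.895). Sgcb probe 2 read 4.25, 4.18 and 4.83 in Con and 3.58, 3.82 and 4.41 in db (difference -0.48 ± 0.37, adjusted p = 0.895), while Sgcb probe 1 differed by 0.08. For both genes db replicate 3 was left out of these values. Sspn was level, with 5.09, 5.04 and 5.45 in Con and 4.58, 5.77 and 5.32 in db replicates 2 to 4, with replicate 1 left out (difference 0.03 ± 0.40, adjusted p = 0.993). Dtna probe 5 was 0.61 and 1.31 in Con, with replicate 3 left out, and 0.33, 0.23, 0.90 and 0.91 in db (difference -0.37), and its probes 2, 3 and 4 differed by 0.12, 0.35 and -0.16.

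Soleus is a mixture of cells, and in bulk samples fewer cells of a type and less RNA per cell cannot be told apart. All 5 endothelial markers were above background in both groups, and their summed level was 23 to 26 in Con and 9.65 to 13.5 in db. Those of fibroblasts were 366 to 428 and 98.3 to 334, of smooth muscle 162 to 399 and 31.7 to 303, of adipocytes 127 to 348 and 116 to 297, of macrophages 35.8 to 122 and 41.6 to 114, of Schwann cells 31.7 to 43.7 and 33 to 78, and of erythroid cells 53.5 to 172 and 90.3 to 157. The endothelial and fibroblast sums of the groups did not overlap. A left-out spot adds nothing to a sum, and the brightest genes weigh most in it. By gene, 0 of 5 endothelial markers passed the threshold (median difference -1.06, from -1.90 to -0.20). For fibroblast markers it was 0 of 5 as well (median -0.07, from -1.43 to 0.27). The part of these cell types in the members' values was not tested.

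**Figure D3:**
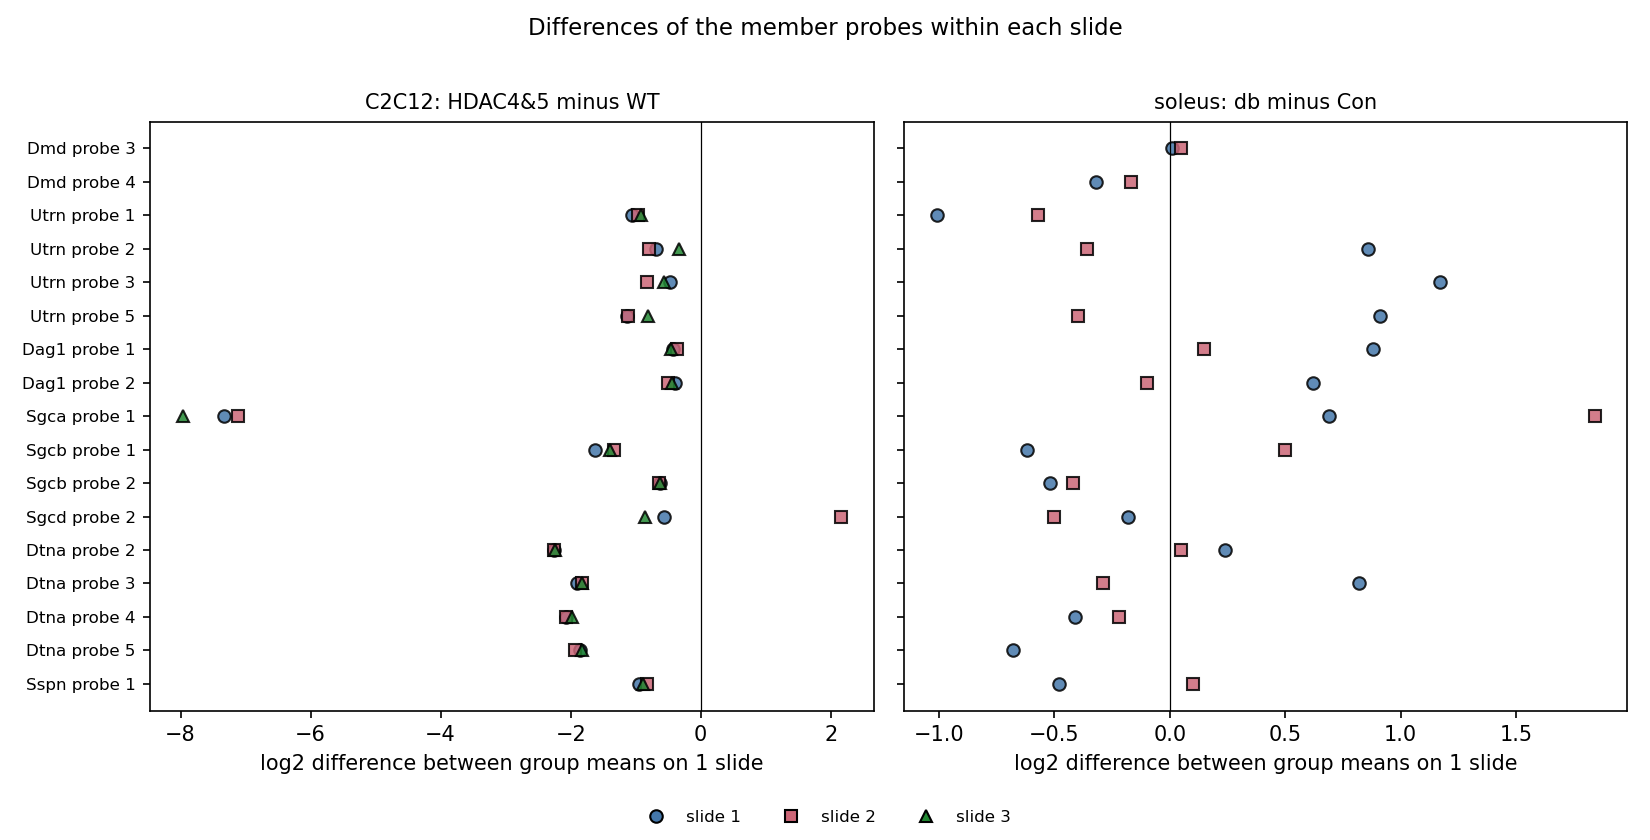
Log2 difference between the group means within each slide, for each member probe tested, in C2C12 cells (3 slides) and in soleus (2 slides), with 1 marker per slide. In the cells the slides lie together except for Sgcd probe 2, which is at 2.16 on slide 2, while for Sgca in soleus they are 0.69 and 1.84.

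Levels in muscle were set against those in WT cells to place each gene over the groups. Here slide, RNA extraction and tissue differ together and cannot be told apart. Of 17 probes tested, 8 were higher in Con soleus than in WT cells and 1 lower, while over all 22559 probes 27.1% were higher and 31.3% lower. The median was 1.22 over the members and -0.16 over all probes. The latter moved with the scaling, to -0.43 after quantile normalization, 0.31 after normexp and -0.31 in the deposited normalized values, where 7, 9 and 6 member probes were higher and 2, 0 and 3 lower.

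Dystrophin differed most between tissue and cells. Dmd probe 4 was 2.13 ± 0.73 (SD, n = 3) in Con against a signal never above background in WT, at least 230-fold higher (adjusted p = 7.86e-07). That bound takes, on each WT array, the dimmest signal that counted as well above background, or the probe's own if brighter. Dmd probe 3 differed by 5.32 ± 3.01 (adjusted p = 0.157) with WT replicate 5, and by 5.99 (adjusted p = 0.000284) without it. Sgcd followed, with a difference of 4.32 ± 0.43 (adjusted p = 1.83e-05), from -4.66 ± 0.22 in WT to -0.34 ± 0.09 in Con.

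Sspn was higher in muscle by 2.29 ± 0.22 (adjusted p = 1.43e-05) and Sgca by 1.86 ± 0.31 (adjusted p = 0.000567). The Sgcb probes were higher by 2.01 and 1.35. Utrophin was not: probe 1 differed by 0.03 ± 0.47 (adjusted p = 0.964), and by -0.84 (adjusted p = 0.00745) without Con replicate 3, the highest Con array at 4.59. Utrn probes 2, 3 and 5 leaned lower in muscle, at -0.71, -0.43 and -2.12, none past the threshold. Dag1 probe 2 was higher by 1.22 ± 0.43 (adjusted p = 0.0324), but not with the slide as a random block (adjusted p = 0.123), with quantile scaling (0.148), in the deposited normalized values (0.106) or without Con replicate 1 (0.251), Con replicate 2 (0.101) or cell slide 3 (0.0855), and probe 1 did not pass (0.75, adjusted p = 0.192). The Dtna probes disagreed, with Dtna probe 2 higher by 1.46 ± 0.21 (adjusted p = 0.000221), Dtna probe 3 lower by -1.80 ± 0.38 (adjusted p = 0.00237, but 0.255 with normexp and 0.0541 without Con replicate 2) and probes 4 and 5 at -0.51 and -0.17, not past the threshold.

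Ordered by group mean, Sgca ran from db through Con and WT down to HDAC4&5, with no neighbours overlapping. For Sgcb and Sspn both soleus groups overlapped each other and stood above WT, which stood above HDAC4&5. For Dmd the soleus groups overlapped far above both cell groups. For Utrn and Dag1 all neighbours in the order overlapped, although the WT and HDAC4&5 arrays of Utrn, which are not neighbours there, did not. Dtna probe 5 was highest in WT, which overlapped Con, Con overlapped db, and the HDAC4&5 arrays lay below all others. For Sgcd, Con was above db and both were above WT, with 1 HDAC4&5 array above all of them.

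The difference in muscle was set against that in cells by a test of the difference itself, over all 19 arrays. The 17 member probes tested included Dmd probes 3 and 4, which no cell array held above background apart from 1 WT array for probe 3. For these no HDAC4&5 difference was measured. Of the 17 probes 4 differed and all in 1 direction, the db difference being above the HDAC4&5 difference, while over all 23218 probes 6.76% differed that way and 6.59% the other way. In the deposited normalized values 22.5% of all calls were the other way, against 49.4% here, and 7 member probes differed, all still in the same direction. Sgca differed by 8.54 ± 0.89 (adjusted p = 3.97e-06), made up of the fall in the cells and the higher mean in db soleus, which did not pass the test on its own. Dtna probes 2, 3 and 5 differed by 2.36 ± 0.27 (adjusted p = 6.5e-06), 2.20 ± 0.48 (adjusted p = 0.00351) and 1.5 ± 0.43 (adjusted p = 0.0274), where the last was at 0.0661 with the replicate number as a block. In this fit Utrn, Dag1, Sgcb, Sgcd and Sspn did not differ past the threshold, which does not show that cells and muscle acted alike. With the slide as a block 8 of 17 probes differed, all in the same direction, against 15.3% of all probes that way and 14% the other way. Dag1 probe 1 (adjusted p = 0.0199), Sgcb probe 1 (0.0374), Utrn probe 3 (0.0423) and Dtna probe 4 were then among them. For Utrn probe 3 the soleus part came from slide 1 alone, where Con replicate 2, at -4.30, was not above background. With normexp Dtna probes 2 and 3 were not past the threshold (adjusted p = 0.493 and 0.519).

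The other parts of the complex were followed by the leading probe of each gene. Of 16 other subunits and direct partners 12 were tested in the cells, and 8 were lower and 3 higher (median -0.66), against 32.7% lower and 36.4% higher over all leading probes. Sync, whose product syncoilin binds α-dystrobrevin, was 0.52 to 1.67 in WT and -3.70 to -2.85 in HDAC4&5, lower by -4.43 ± 0.21 (adjusted p = 5.64e-10). Cav3, the caveolin of muscle, was above background on no HDAC4&5 array and at least 4.36-fold lower there (adjusted p = 1.28e-09). Sgce, the widely expressed ε-sarcoglycan, was higher by 1.54 ± 0.06 (adjusted p = 1.87e-10), and Dtnb, the related β-dystrobrevin, by 1.43 ± 0.06 (adjusted p = 2.86e-10). Dtnbp1, which encodes the dystrobrevin-binding protein dysbindin, was higher by 0.53. Among the 8 lower was the syntrophin gene Sntb1 (-1.67), named after its value was seen. The list thus moved in both directions.

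Of 6 matrix ligands of dystroglycan 4 were tested in the cells, and 3 were lower and 1 higher (median -2.10), a count too small to set against those shares. Lama2, the laminin chain of the muscle basement membrane, was 1.30 to 1.44 in WT and above background on no HDAC4&5 array, at least 107-fold lower (adjusted p = 4.13e-16). Bgn, the proteoglycan biglycan, fell by 2.77 on the log2 scale and Hspg2, which encodes perlecan, by 1.43. Agrn, the agrin gene, was higher by 1.57 ± 0.08 (adjusted p = 1.89e-08). Of 18 enzymes that build dystroglycan's sugar chains 16 were tested, and 6 were lower, 4 higher and 6 neither (median -0.12), so that the count lower was near the background of 32.7%. Pomgnt2, which adds a sugar to the mannose that the chain is built on, was -1.67 to -1.45 in WT and 2.63 to 2.87 in HDAC4&5, higher by 4.27 ± 0.06 (adjusted p = 5.93e-15). B3galnt2 was higher by 0.67 and Dpm1 by 0.53. B4gat1, Pomt1 and Dolk had the largest falls, at -1.14, -0.62 and -0.50.

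In db soleus none of these lists held a gene past the threshold by limma (0 of 12 partners, 0 of 5 ligands and 0 of 17 enzymes tested). The methods' t-test, before adjustment, called 1 of 12 partners, while over all 18472 probes it called 805 higher and 596 lower. The differences of largest size were Sync at 0.93 (adjusted p = 0.629) and Nos1, the nitric oxide synthase held by the complex, at -0.80 (adjusted p = 0.823) among partners. Among ligands they were Hspg2 at -1.19 (adjusted p = 0.627) and Agrn at -0.94 (adjusted p = 0.703), and among enzymes Dpm1 was at 0.98 (adjusted p = 0.833). For Nos1, db replicates 1 and 3 were left out. For Dpm1, Con replicate 3, the only Con array of slide 2, was left out. On slide 1 Dpm1 was 4.55 and 4.69 in Con and 4.83 and 5.09 in db, while the db arrays of slide 2 read 6.49 and 5.97. Its difference thus mixes db with slide.

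**Figure D4:**
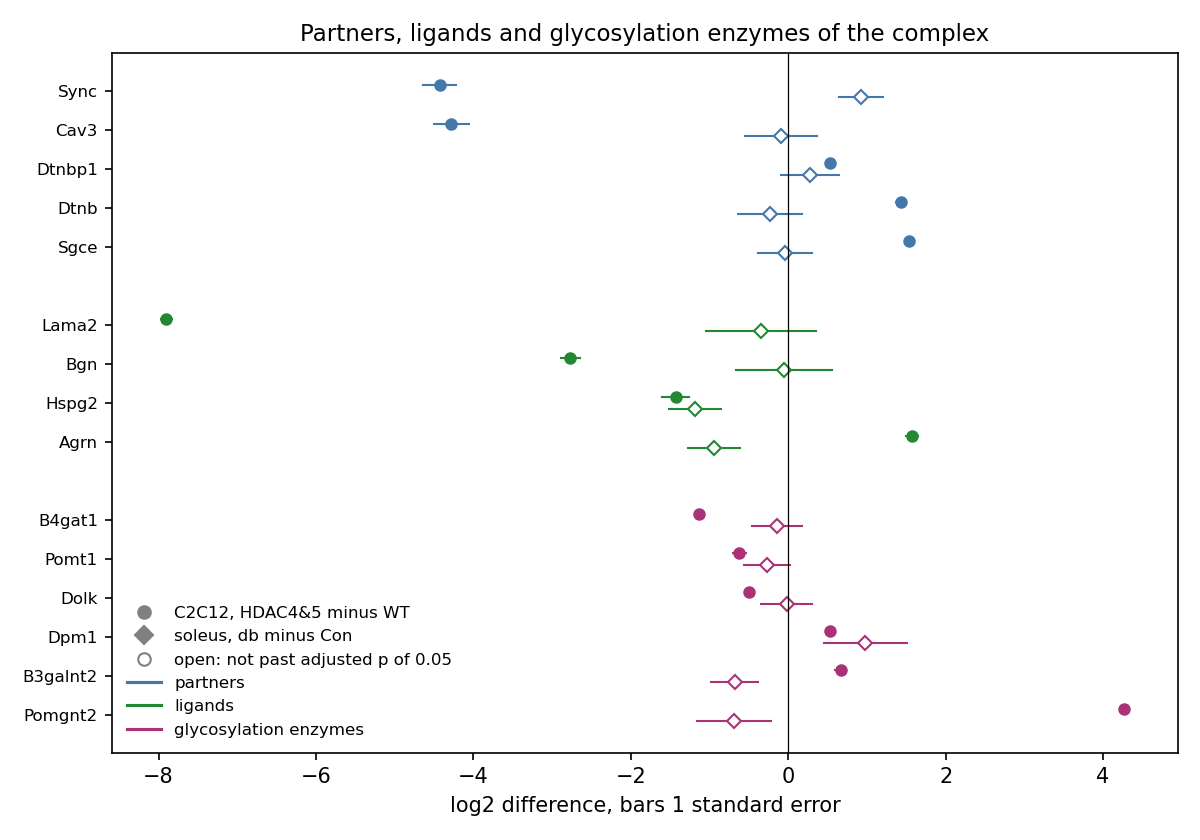
Log2 difference with 1 standard error for the leading probe of the genes of the 3 lists that are named in the text and were tested in the cells, other than Sntb1, as circles for C2C12 cells (HDAC4&5 minus WT) and diamonds for soleus (db minus Con), filled where the adjusted p was under 0.05. The circle of Pomgnt2 is at 4.27 and every diamond is open, while the circles of Lama2 and Cav3 stand on HDAC4&5 signals not above background and are not measured sizes.

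The genes nearest to each member were found by the root mean square difference over 18 or 19 arrays, after centring each gene on its mean, among 12240 candidates. Sgca was nearest to Xirp1 (0.52) and Jph2 (0.66), genes of proteins at the junctions and membrane systems of striated muscle. Ppp1r3d (0.29) was one of the nearest pair for Dmd. The nearest genes of Utrn were Jag2 (0.40) and Cul7 (0.41), of Dag1 Ptdss1 (0.21) and Zfp563 (0.25), of Sgcb Ccnl2 (0.17) and 0610009B22Rik (0.20), of Sgcd AK047247 (0.54) and Crybb1 (0.61), of Dtna Lcmt2 (0.17) and 1700056E22Rik (0.21), and of Sspn Rhot2 (0.18) and Itgb4 (0.20). The Sgcd distances include HDAC4&5 replicate 4, where its probe read 0.60, far above the other HDAC4&5 arrays. How far the nearest genes of Sgcd rest on that array was not tested. Distances are smaller for genes whose own levels move less, so they are not comparable between members.

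Promoters were read because the myogenic factor Myod1, whose probe was above background on no HDAC4&5 array, binds E-boxes, and MEF2 factors are known partners of class IIa histone deacetylases. The 250 bases before the start are shown for Sgca, with the largest fall, for Sgcb, with a smaller one, and for the Dmd start site whose window holds a MEF2 site. They are RefSeq sequences on GRCm38.p6, whose coordinates cannot be set against the mm9 positions of the probes, and capitals mark the letters CANNTG, read on both strands, or a MEF2 site.
Sgca, chr11:94976328-94976577, minus strand: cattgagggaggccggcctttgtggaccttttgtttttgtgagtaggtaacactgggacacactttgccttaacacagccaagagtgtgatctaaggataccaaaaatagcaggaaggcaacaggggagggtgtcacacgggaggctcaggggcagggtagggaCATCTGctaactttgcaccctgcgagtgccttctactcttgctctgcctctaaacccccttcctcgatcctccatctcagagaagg
Sgcb, chr5:73647738-73647987, minus strand: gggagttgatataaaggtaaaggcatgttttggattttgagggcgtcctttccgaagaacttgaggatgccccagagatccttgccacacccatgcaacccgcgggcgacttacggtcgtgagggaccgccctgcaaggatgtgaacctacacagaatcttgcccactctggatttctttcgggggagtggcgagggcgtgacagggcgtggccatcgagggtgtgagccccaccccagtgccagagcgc
Dmd, upstream start site, chrX:82948620-82948869, plus strand: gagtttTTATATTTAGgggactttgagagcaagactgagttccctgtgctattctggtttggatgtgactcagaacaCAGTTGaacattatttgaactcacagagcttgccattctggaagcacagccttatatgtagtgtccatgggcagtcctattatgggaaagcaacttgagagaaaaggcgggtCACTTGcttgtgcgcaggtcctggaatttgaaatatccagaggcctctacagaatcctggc

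Sgca held 1 CANNTG, 86 bases before its start, Sgcb held none and the Dmd window held a pair at 173 and 61 bases. Of 10 start sites of 7 member genes, 7 held CANNTG, against 66.2% of 32851 promoter windows of the same length. The windows of Dag1 start sites 1 and 2 overlap, and the same CANNTG was counted in both, at 104 and at 247 bases. The forms CAGCTG and CACCTG, which are part of CANNTG, were in 0 of 10, against 13% and 17.2%, and a MEF2 site was in 1 of 10, against 2.92%. The share with CANNTG was thus near that of all promoters, and a match or its absence says nothing about binding.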

How the data were processed

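Total RNA of 19 samples was hybridized to Agilent mouse arrays in 1 colour. Scanner files from Agilent Feature Extraction 9.5.1.1 were deposited, whose processed intensity is background-subtracted. The authors also deposited a normalized matrix of linear ratios for the same arrays. Its db column numbers did not match the scanner files, and it was used by group only. For the soleus arrays of slide 1, the log2 ratio of matrix to nearest scanner file had an interquartile range over spots of 0.469 to 0.618. On the other arrays that range was at most 0.00206. Soleus values from the matrix thus do not rest on the same signals throughout, and why was not tested.

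Control and outlier spots were left out, spots of a probe averaged, and log2 intensity minus the 75th percentile of its array taken. Names came through RefSeq for 27198 of 41174 probes, 2694 of them changed. A probe entered a fit where it was well above background throughout 1 or more of the groups compared, and fits were made in limma 3.58.1 (R 4.3.3) with Benjamini-Hochberg adjustment over all probes tested (threshold 0.05). The fits across muscle and cells used array weights by data set. The fit was tested on simulated data. Samples were grouped by the labels, and the study's methods call separate dishes or mice biological replicates but state 3 of them a group, where the labels list 6 cell arrays a group and 4 db arrays. Whether cell arrays share a dish is not given, so p-values measure the spread between arrays, and averaging the arrays of a group on the same slide was added after seeing the data. The members and lists were chosen with earlier results of these data known.

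Named genes were all members, Hdac4 and Hdac5, and per list the 3 largest rises and falls in cells and, with none past the threshold in soleus, the 2 largest differences there, some of which are not reported here. Same-numbered arrays deviated together (correlation 0.228 to 0.584 in cells and 0.371 to 0.661 in soleus), as did other arrays of the same slide (0.202 to 0.544 and 0.269 to 0.731), so the number carries the slide. No array was a duplicate of another (correlation within groups at most 0.992). Alternatives were quantile scaling, normexp with offset 50, the deposited matrix, filters, 1 probe per gene, slide or replicate blocks, arrays or slides left out and the methods' t-test. The number of arrays limits the precision.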

Additional observations from a re-analysis of the deposited data

Results flagged for a closer look

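In 98 groups of 4 or more arrays, 8 had an end array far from the rest by Dixon's criterion, where chance gives about 1 in 20 groups, or 4.9. These were Sgcd probe 2 on HDAC4&5 replicate 4 (0.60, described above), Dtna probe 1 on the same array (-4.18), Dmd probe 3 on WT replicate 5 (-3.75), Sgcd probe 1 on WT replicate 3 (-3.68), and in db soleus Sgce on replicate 4 (4.59), B3galnt2 on replicate 4 (1.45), B4gat1 on replicate 1 (2.52) and Pomt1 on replicate 2 (-2.06).

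The db difference in soleus and the HDAC4&5 difference in cells differed by a test of that difference (limma adjusted p under 0.05). Among members these were Sgca (8.54) and Dtna probes 2 (2.36), 3 (2.20) and 5 (1.5). Among partners the db difference was above that in cells for Sync (5.36) and Cav3 (4.19), and below it for Sgce (-1.58) and Dtnb (-1.66). Among ligands it was above for Lama2 (7.54) and Bgn (2.72) and below for Agrn (-2.51). The HDAC4&5 signals of Lama2 and Cav3 were not above background, so these values are fitted and not measured sizes. Among enzymes it was above for B4gat1 (0.99) and below for Pomgnt2 (-4.97) and B3galnt2 (-1.35).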

How the results depend on the processing

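Of 100 alternative counts of called probes or genes, 90 were equal to the count reported or within 1.5 times of it. Many of the 90 were soleus counts that stayed at 0. Most soleus fits called few or none of all probes, so these counts had little room to change. With 1 probe per gene, fewer probes were tested and the member counts were 6 in cells, 5 between muscle and cells and 2 for the difference between both effects. With probes required to be above background in both groups, partners called in cells were 7 in place of 11 and the difference between effects 2 in place of 4. That difference counted 2 with normexp, 7 in the deposited matrix and 8 with the slide as a block. Without a filter, muscle against cells gave 14 of 24 probes tested, while over all 41075 probes 19384 were higher and 7978 lower. The unadjusted methods' t-test called 1 of 12 partners in soleus, while over all 18472 probes it called 805 higher and 596 lower. The cause of the other changes was not tested. With the replicate block, members called in cells stayed at 14, in soleus at 0, and were 5 for the difference between effects. In soleus Sgca was 1.07 with that block (adjusted p = 0.267), and Dtna probe 5 in the difference between effects was the member call it ended.

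Signs of leading probes reversed as follows. Sgcd in cells was -0.71 without slide 2 and -0.76 without HDAC4&5 replicate 4, an alternative chosen after seeing the data. In soleus, Sspn was -0.33 after quantile scaling, -0.21 in the matrix, -0.19 with the slide block, -0.06 with the replicate block, and -0.33 with the slide block without db replicate 3, also chosen after seeing the data. Leaving out each soleus array in turn, Sspn ran from -0.24 to 0.35, Dmd from -0.70 to 0.10 and Utrn from -0.92 to 0.51, with the highest of Dmd and Utrn without Con replicate 3. In the matrix Dmd was 0.21 and Sgcb 0.09. Between muscle and cells, Utrn was -0.04 after quantile scaling, -0.14 with normexp, -0.10 in the matrix and from -0.84 (without Con replicate 3) to 0.46 with an array left out. The t-test compares only a pair of groups and was not run for the difference between effects, nor was a replicate block for muscle against cells.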
